A study of Mus musculus with 2 samples.

Results

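Ccl3, Ccl4, Ccl5 and Xcl1 are the chemokine ligand genes described here. They were chosen by their gene symbols and are 4 of the 32285 genes in the deposited tables. The data are 2 droplet single-cell RNA libraries of lung γδ T cells, sorted fresh by flow cytometry from mice of 5 to 7 weeks that had not been infected. The WT library holds Vγ1-negative cells of C57BL/6NCrl mice. The other library, labelled KO, holds Vγ1+ cells of the strain B6.Cg-Tcrgtm1lku(B6.Vg4-/-Vg6-/-), which is labelled as lacking Vγ4 and Vγ6. Each group has 1 library, and how many mice went into it is not given in the sources used here. Sort, genotype, strain and library therefore cannot be told apart, and no difference between the libraries has a replicate check or a test.

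The genes targeted in the KO strain were examined first. Tcrg-V6 had 2893 UMIs (counted RNA molecules) in the WT library against 0 in the KO-labelled library. Tcrg-V4 had 689 UMIs in WT (22.9% of cells) and 1259 UMIs in the larger KO-labelled library (964 cells, 15.1%). Of those 964 cells, 345 had no other Tcrg-V gene. Tcrg-V4 transcripts were thus present in a strain labelled as lacking Vγ4, so the name KO-labelled is used throughout. Whether these transcripts form a receptor chain was not tested. Tcrg-V1 had 5398 UMIs in KO-labelled cells and 245 in WT. After the cell filter and a T cell marker gate, 2251 WT cells (8339682 UMIs, median 3377 per cell) and 6373 KO-labelled cells (25356308 UMIs, median 3569) were used. A UMI of Cd3e, a subunit of the T cell receptor complex, was found in 83.7% of filtered WT cells and 89.2% of filtered KO-labelled cells, and one of Trdc, the constant part of the receptor δ chain, in 40.6% and 43.7%. UMIs of 6 αβ T cell marker genes came to 923 CPM (UMIs of the genes per 1000000 UMIs) in WT and 1237 CPM in KO-labelled cells. They are the chain genes Trac, Trbc1 and Trbc2 and the coreceptor genes Cd4, Cd8a and Cd8b1. Each of the 6 had UMIs in both libraries, so cells with αβ chain transcripts were present in both. Whether such cells are αβ T cells was not tested. 23 cell barcodes occurred in both libraries.

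Chemokines are small secreted proteins that guide the movement of leukocytes through G protein-coupled receptors. CCL3 and CCL5 bind CCR1, which is carried by monocytes and macrophages. XCL1 has its own receptor, XCR1, found on the dendritic cells that cross-present antigen. NK cells and activated cytotoxic T cells are textbook sources of these ligands, and CCL5 is stored by memory and effector T cells in secretory granules.

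Ccl3 (ENSMUSG00000000982, chr11:83647844-83649355, minus strand), Ccl4 (ENSMUSG00000018930, chr11:83662584-83664683, plus strand) and Ccl5 (ENSMUSG00000035042, chr11:83525778-83530518, minus strand) are protein-coding genes of the same chemokine cluster in GRCm38. Ccl3 and Ccl4 are 13229 bases apart, and Ccl3 and Ccl5 are 117326 bases apart. Xcl1 (ENSMUSG00000026573, chr1:164931644-164935527, minus strand) lies alone on chromosome 1. The annotation places a noncoding transcript, Gm20743, over Xcl1 on the opposite strand. It had 2 UMIs in WT and 4 in KO-labelled cells.

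The sequence before the start of Xcl1 is shown because Xcl1 ranked within the first 5 of all genes in the WT Ly6c2 split and in both Ifng splits below. It is the 250 bases upstream of the RefSeq start (GRCm38.p6, chr1:164935523-164935772, minus strand), written 5′ to 3′, and the capitals mark the only match to the motifs searched.
Xcl1 upstream: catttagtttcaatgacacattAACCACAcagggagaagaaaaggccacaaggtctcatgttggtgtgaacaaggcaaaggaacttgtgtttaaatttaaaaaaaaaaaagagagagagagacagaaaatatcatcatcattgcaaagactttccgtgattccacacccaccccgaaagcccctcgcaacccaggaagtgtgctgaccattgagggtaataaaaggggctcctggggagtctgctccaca
The letters in capitals are TGTGGTT, the core bound by Runx factors, read on the opposite strand. The match begins 228 bases before the start. That motif occurs in 4.40% of the 32851 RefSeq promoter windows of the same length. Both strands were also searched for TGANTCA (AP-1, in 6.75% of windows), the NF-kB decamer (1.41%), TGGAAA (NFAT, 18.6%) and AGGTGTGA (T-box, 1.12%), and none of these was found in the Xcl1 window. The window upstream of Ccl3 (chr11:83649379-83649628) held none of the 5 motifs.

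The 4 genes were present at very different depths of measurement. Ccl5 was a high-count gene, with 20994 UMIs in WT and 52403 in KO-labelled cells. Xcl1 had 123 and 326 UMIs, Ccl4 had 87 and 86, and Ccl3 had 11 and 16. Ccl3 was therefore under the minimum of 30 UMIs that a gene needed here to be counted as measured, both in each library alone and over the 2 libraries. Levels below are CPM, with the UMIs of a gene and of all genes each summed over the cells of a group. They are not scaled to gene length, so they are compared between groups of cells and not between genes. All intervals are exact 95% intervals and cover counting error only.

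Ccl5 was at 2517 CPM (2483 to 2552) in WT and 2067 CPM (2049 to 2084) in KO-labelled cells, a log2 ratio of KO-labelled over WT of -0.28 (-0.31 to -0.26). The share of cells with a Ccl5 UMI went the other way, at 29.1% (654 of 2251 cells) in WT and 40.3% (2569 of 6373) in KO-labelled cells. With every cell thinned to 2000 UMIs, which 2041 WT and 5745 KO-labelled cells allowed, the shares were 28.1% (26.1 to 30.1) and 37.7%. Fewer WT cells thus held more Ccl5 each. Among cells with Ccl5 the median was 24 UMIs in WT and 14 in KO-labelled cells. Cells with 100 or more Ccl5 UMIs were 1.38% of WT cells and carried 23.2% of the library's Ccl5, against 0.251% of KO-labelled cells and 4.07% of the Ccl5.

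Part of a share of cells with a UMI can come from free RNA in the droplets. Among cells with at least 3 B cell marker genes, which should lack Ccl5 and Xcl1, a Ccl5 UMI was found in 1 of 29 WT cells (median 2475 UMIs) and in 6 of 21 KO-labelled cells (28.6%), and 52.4% of those KO-labelled cells also had a T cell marker UMI. Xcl1 was found in none of them. Within the T cells, the group with Tmem176b and none of Ly6c2, Gzma and Ifng had a Ccl5 UMI in 4.8% of WT cells and 9.3% of KO-labelled cells, so a background common to all cells of a library was no higher than that.

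Ccl4 was at 10.4 CPM (8.36 to 12.9) in WT and 3.39 CPM (2.71 to 4.19) in KO-labelled cells, a log2 ratio of -1.62 (-2.07 to -1.17). Of the 3 members with at least 30 UMIs over both libraries, Ccl4 was the only one that was at least 2-fold lower in KO-labelled cells, where 5.21% of 11980 genes were. None was at least 2-fold higher, as 3.36% of the genes were. Ccl4 lay in few cells, 42 in WT and 36 in KO-labelled cells, and the 10 cells with most of it held 52.9% and 61.6% of its UMIs. The ratio was -3.33 without the cells above the median share of immediate-early transcripts, the rapidly induced messages that also mark dissociation stress.

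Xcl1 was at 14.7 CPM (12.3 to 17.6) in WT and 12.9 CPM (11.5 to 14.3) in KO-labelled cells. The log2 ratio was -0.20, and its interval of -0.50 to 0.11 holds both directions. Xcl1 UMIs were in 76 WT cells (3.38%) and 200 KO-labelled cells (3.14%), or 2.01% and 1.72% of cells at 2000 UMIs. No cell had more than 9. Ccl3 was at 1.32 CPM (0.658 to 2.36) and 0.631 CPM (0.361 to 1.02), with 9 WT and 15 KO-labelled cells, and its ratio of -1.06 (-2.26 to 0.19) was not resolved at this depth.

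The cells were next grouped by transcripts of the variable genes of the receptor γ chain, taking those with UMIs of exactly 1 Tcrg-V gene. Such a UMI does not give the receptor on the cell. The Vγ1-negative WT sort held 80 cells with Tcrg-V1 alone. The Vγ1+ KO-labelled sort held 345 with Tcrg-V4 alone and 81 with Tcrg-V3 alone. The group names therefore stand for the transcript found and not for a receptor subset. In WT, Tcrg-V6 cells stood at the low end for all 3 measured ligands. Ccl5 was at 314 CPM (290 to 340) in 508 Tcrg-V6 cells, against 2899 CPM (2813 to 2987) in 391 Tcrg-V4 cells, 3365 CPM in 80 Tcrg-V1 cells and 1763 CPM in 47 Tcrg-V5 cells. The Tcrg-V6 over Tcrg-V4 log2 ratio was -3.21 (-3.33 to -3.09) for Ccl5. Ccl5 UMIs were found in 7.05% (4.93 to 9.72) of Tcrg-V6 cells at 2000 UMIs and in 31.7% (27.0 to 36.7) of Tcrg-V4 cells.

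Xcl1 and Ccl4 were also lower in Tcrg-V6 than in Tcrg-V4 cells, while the order of the other groups was not the same for each ligand. Xcl1 was at 3.56 CPM (1.43 to 7.34) in Tcrg-V6 cells and 24.1 CPM (16.9 to 33.4) in Tcrg-V4 cells, a log2 ratio of -2.76 (-4.17 to -1.57). Ccl4 was at 1.02 CPM, from 2 UMIs of a single cell, and 10.0 CPM, with a ratio of -3.30 (-6.47 to -1.20). Ccl3 had too few UMIs for a ratio in these groups.

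Tcrg-V7 cells of WT were the highest single-gene group for Ccl5. The 32 cells had 10228 CPM (9725 to 10749) of Ccl5 and 85.6 CPM (45.6 to 146) of Ccl4, which are log2 ratios of 1.82 (1.73 to 1.90) and 3.09 (1.90 to 4.26) over Tcrg-V4 cells. The 13 Ccl4 UMIs of the group were in 4 cells, 8 of them in a single cell. Xcl1 had 1 UMI there. The Ccl5 of these cells sat in the 11 with a Gzma UMI, at 30347 CPM, against 1527 CPM in the other 21. In KO-labelled cells only 16 cells had Tcrg-V7 alone, with 1971 CPM of Ccl5.

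In KO-labelled cells, Ccl5 was at 1791 CPM (1764 to 1818) in 2102 Tcrg-V1 cells, 2195 CPM (2118 to 2274) in 345 Tcrg-V4 cells and 2953 CPM (2769 to 3146) in 81 Tcrg-V3 cells. These CPM intervals do not overlap, but they do not cover the spread between cells. Ccl5 UMIs were in 33.4% (31.3 to 35.5), 36.5% (31.2 to 42.1) and 61.3% (49.4 to 72.4) of their cells at 2000 UMIs. The share intervals of the Tcrg-V1 and Tcrg-V4 cells overlap. Xcl1 was at 11.6 CPM (9.51 to 14) in the Tcrg-V1 cells and 22.8 CPM (15.6 to 32.2) in the Tcrg-V4 cells, a log2 ratio of Tcrg-V4 over Tcrg-V1 of 0.98 (0.36 to 1.56). Ccl4 had 21 UMIs in the Tcrg-V1 cells and 12 in the Tcrg-V4 cells, a ratio of 1.93 (0.77 to 3.01). Both ratios rest on few cells, as 3 Tcrg-V4 cells held 19 of the 32 Xcl1 UMIs and 3 held 10 of the 12 Ccl4 UMIs. At 2000 UMIs the Xcl1 shares were 1.59% (1.09 to 2.24) of Tcrg-V1 and 2.22% (0.90 to 4.52) of Tcrg-V4 cells, with overlapping intervals. Neither Xcl1 nor Ccl4 had a UMI in the Tcrg-V3 cells, and the exact upper limit of either was 11.3 CPM.

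Across the libraries, KO-labelled Tcrg-V1 cells lay between WT Tcrg-V4 and Tcrg-V6 cells for Ccl5 and Xcl1. Against WT Tcrg-V4 cells their log2 ratios were -0.69 (-0.74 to -0.65) for Ccl5, -1.06 (-1.61 to -0.47) for Xcl1 and -2.15 (-3.18 to -1.09) for Ccl4. Against WT Tcrg-V6 cells they were 2.51 (2.40 to 2.63) for Ccl5 and 1.70 (0.61 to 3.05) for Xcl1, while the interval for Ccl4, -0.88 to 4.29, holds both directions. Against the 80 WT Tcrg-V1 cells they were -0.91 (-1.0003 to -0.82) for Ccl5 and -2.85 (-4.29 to -1.08) for Ccl4, and the interval for Xcl1 was -1.92 to 0.73. The WT Tcrg-V1 cells had only 5 Ccl4 UMIs in 2 cells, 4 of them in a single cell, so that ratio rests on very few cells. The Tcrg-V4 cells of the libraries differed by -0.40 (-0.47 to -0.33) for Ccl5, while the interval for Xcl1, -0.81 to 0.65, holds both directions. Limiting the groups to cells with at least 2 UMIs of their Tcrg-V gene moved the Ccl5 ratio of KO-labelled Tcrg-V1 over WT Tcrg-V4 cells to -1.33.

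**Figure D1:**
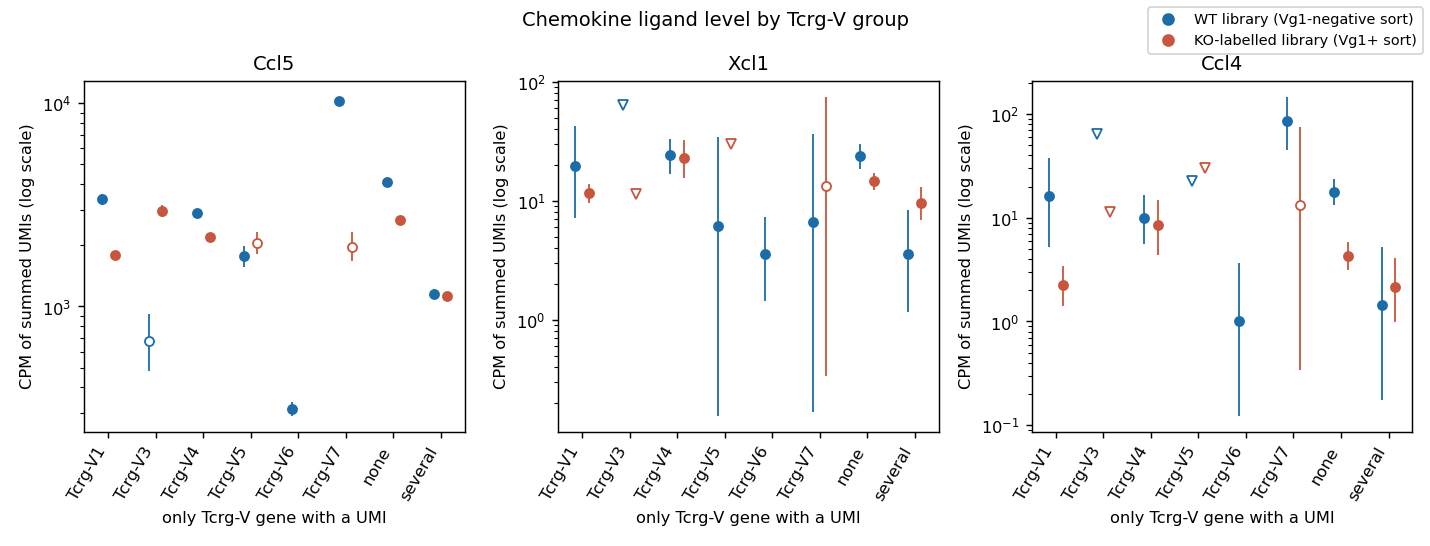
Levels of Ccl5, Xcl1 and Ccl4 (CPM, log axis) by Tcrg-V group in the WT and KO-labelled libraries, with exact 95% Poisson bars. Open points are groups under 30 cells and downward triangles are the upper limit where a group had 0 UMIs. In WT, Tcrg-V6 cells lie low in each panel, with 314 CPM of Ccl5 against 2899 CPM in Tcrg-V4 cells.

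No Tcrg-V UMI was found in 880 WT cells (39.1%) and 3038 KO-labelled cells (47.7%), and these held a large part of the ligand UMIs. Ccl5 was at 4104 CPM (4029 to 4179) in such WT cells and 2670 CPM (2638 to 2702) in such KO-labelled cells, both above the Tcrg-V1 and Tcrg-V4 cells of their own library. Xcl1 was at 23.9 CPM and 14.6 CPM. Cells with several Tcrg-V genes were lower, at 1156 CPM and 1132 CPM of Ccl5. The αβ marker genes were at 967 CPM in the WT cells without a Tcrg-V UMI and 1026 CPM in the Tcrg-V4 cells, and at 1193 CPM and 1284 CPM in the KO-labelled cells without one and those with Tcrg-V1 alone. In WT they were lowest, at 679 CPM, in the Tcrg-V6 cells and highest among the groups of at least 30 cells, at 1527 CPM, in the Tcrg-V7 cells, which were also the lowest and highest groups for Ccl5. Marker genes of NK and innate lymphoid cells were at 32.1 CPM in the WT cells without a Tcrg-V UMI, against 16.7 CPM in Tcrg-V4, 13.0 CPM in Tcrg-V1 and 7.12 CPM in Tcrg-V6 cells. In KO-labelled cells they were at 17.6 CPM without a Tcrg-V UMI and 19.3 CPM with Tcrg-V1. The part of these cells in the ligand levels was not tested.

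Cells were then split within each library by a UMI of 4 genes that mark different γδ T cell states. Ly6c2 encodes a surface protein of memory and effector T cells, Gzma a granule protease of cytotoxic cells, and Ifng the cytokine interferon γ. Tmem176b encodes an ion channel-like membrane protein that is high in IL-17-producing γδ T cells. The Ly6c2-positive cells numbered 424 in WT and 1593 in KO-labelled cells, the Gzma-positive 128 and 290, the Ifng-positive 100 and 360, and the Tmem176b-positive 1146 and 1485.

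By Ly6c2, Ccl5 was at 7123 CPM (7003 to 7243) in the cells with it and 1151 CPM (1125 to 1177) in the cells without it in WT, and at 5115 CPM and 972 CPM in KO-labelled cells. The log2 ratios were 2.63 (2.59 to 2.67) and 2.40 (2.37 to 2.42). WT cells with Ly6c2 were deeper (median 4122 UMIs against 3256). At 2000 UMIs, 92.1% of Ly6c2-positive WT cells had Ccl5, against 12.2% of the rest, and in KO-labelled cells 80.2% against 22.6%. Ccl5 detection thus nearly covered the Ly6c2-positive cells in WT and did so less in KO-labelled cells. The Ly6c2-positive cells held 64.7% and 65.4% of all Ccl5 UMIs.

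Xcl1 was sparser, and in WT a larger part of it than of Ccl5 was in these cells. It was at 52.4 CPM (42.6 to 63.7) with Ly6c2 and 3.58 CPM (2.27 to 5.37) without it in WT, a log2 ratio of 3.87 (3.21 to 4.59) and rank 5 among 9798 genes. In KO-labelled cells it was at 33.0 CPM and 5.63 CPM, a ratio of 2.55 (2.21 to 2.90). Of all Xcl1 UMIs, 81.3% and 67.8% were in Ly6c2-positive cells.

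Ccl4 was at 24.1 CPM and 6.38 CPM in WT, a ratio of 1.92 (1.28 to 2.56), and at 5.52 CPM and 2.63 CPM in KO-labelled cells, a ratio of 1.07 (0.42 to 1.72). All 3 measured ligands were at least 2-fold higher with Ly6c2 in both libraries, where 2.68% of genes in WT and 1.23% in KO-labelled cells were. Ccl3 had 5 and 6 WT UMIs with and without Ly6c2 and 7 and 9 in KO-labelled cells.

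**Figure D2:**
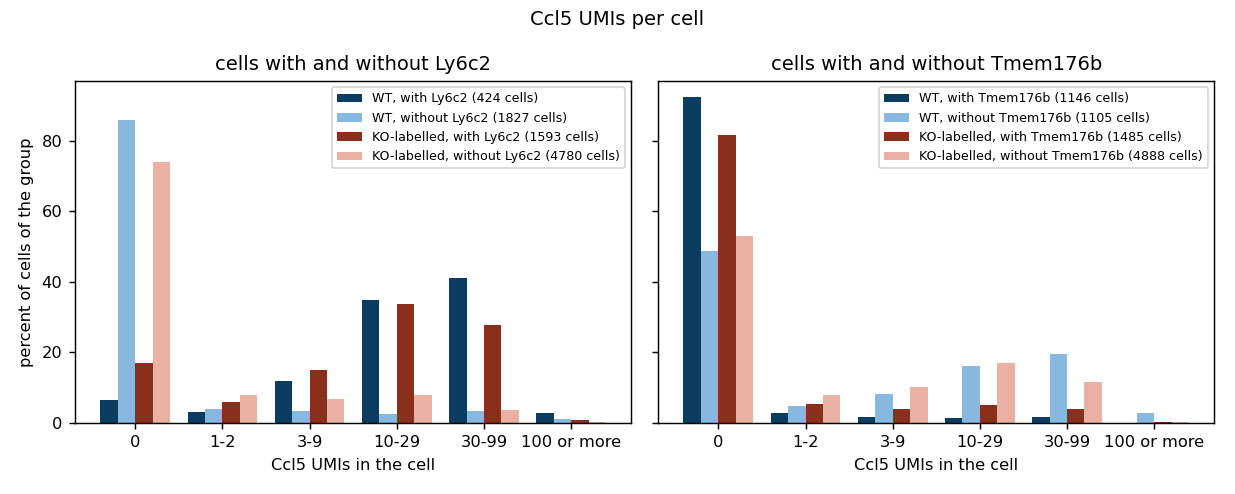
Percent of cells in each bin of Ccl5 UMIs per cell, for cells with and without Ly6c2 and with and without Tmem176b in each library. In WT, 6.37% of Ly6c2-positive cells had no Ccl5 UMI and 41.0% had 30 to 99, whereas 92.3% of Tmem176b-positive cells had none.

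The Ly6c2 difference was also found inside single Tcrg-V groups. Among WT Tcrg-V4 cells, Ccl5 was at 6988 CPM in 99 cells with Ly6c2 and 1116 CPM in 292 without it, and all 36 Xcl1 UMIs were in the cells with Ly6c2. Against the floor of 3 UMIs that is a log2 ratio of at least 4.78. Among KO-labelled Tcrg-V1 cells, Ccl5 was at 4760 CPM and 802 CPM and Xcl1 at 31.8 CPM and 4.87 CPM, ratios of 2.57 (2.52 to 2.62) and 2.71 (2.10 to 3.34).

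Tcrg-V6 cells had Ly6c2 rarely, in 15 of 508 cells (2.95%), against 25.3% of WT Tcrg-V4 cells and 23.0% of KO-labelled Tcrg-V1 cells. Those 15 cells were at 2846 CPM of Ccl5 and held 285 of the 617 Ccl5 UMIs of the group. The other 493 were at 178 CPM. Gzma was found in 0 of the 508 cells, and 3 cells of 508 would be 0.591%, the limit set by counting on the share of cells with a Gzma UMI.

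By Gzma, the ligands behaved differently in the libraries. In WT, Ccl5 was at 13496 CPM (13195 to 13801) in the cells with Gzma and 1717 CPM (1688 to 1746) in those without it, a log2 ratio of 2.97 (2.93 to 3.02). In KO-labelled cells it was at 3168 CPM (3075 to 3263) and 2003 CPM (1985 to 2021), a ratio of 0.66 (0.62 to 0.71). At 2000 UMIs, 75.2% of WT cells with Gzma had Ccl5 and 46.2% of KO-labelled cells with Gzma had it.

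Ccl4 was the ligand most concentrated in Gzma-positive WT cells, at 101 CPM (76.1 to 130) against 3.86 CPM (2.60 to 5.51), a ratio of 4.70 (4.04 to 5.39). In KO-labelled cells it was at 12.2 CPM and 2.88 CPM, a ratio of 2.08 (1.22 to 2.86). The Xcl1 ratios were smaller, 1.04 (0.18 to 1.80) in WT and 1.14 (0.60 to 1.64) in KO-labelled cells. All 3 measured ligands were at least 2-fold higher with Gzma in WT and 2 of 3 in KO-labelled cells, against 5.06% and 2.81% of genes. The KO-labelled count was 1 when 2 Gzma UMIs were required and 0 without the cells above the median immediate-early share.

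Gzma itself was unlike in the libraries, with a log2 ratio of KO-labelled over WT of -2.60 (-2.70 to -2.51). WT cells with it had a median of 5 Gzma UMIs, and 26.6% of them had a single UMI. KO-labelled cells had a median of 2, and 46.6% had a single UMI. With Gzma alone and none of the other 3 genes, Ccl5 was at 13620 CPM (13123 to 14131) in 54 WT cells, of which 59.3% had a Ccl5 UMI, but at 597 CPM (541 to 658) in 154 KO-labelled cells, of which 21.4% had one. Cells with none of the 4 genes had nearly the same Ccl5 level, 1206 CPM (1158 to 1255) in WT and 1219 CPM (1199 to 1239) in KO-labelled cells. The share of them with a Ccl5 UMI differed, at 23.1% of 642 WT cells and 31.6% of 3198 KO-labelled cells. The part that the depth of Gzma had in the difference between cells with Gzma alone was not tested.

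By Ifng, all 3 measured ligands were at least 2-fold higher in both libraries, where 4.06% of WT and 3.27% of KO-labelled genes were. Xcl1 was at 125 CPM (94.0 to 162) with Ifng and 8.61 CPM (6.69 to 10.9) without it in WT, and at 78.1 CPM (64.6 to 93.7) and 8.80 CPM (7.65 to 10.1) in KO-labelled cells. Its log2 ratios, 3.86 (3.32 to 4.39) and 3.15 (2.81 to 3.48), ranked 2 of 9798 and 5 of 11441 genes. Ccl5 was at 10511 CPM and 2071 CPM in WT, a ratio of 2.34, and at 6265 CPM and 1806 CPM in KO-labelled cells, a ratio of 1.79. The Ccl4 ratios were 2.01 (1.13 to 2.81) and 2.47 (1.70 to 3.19).

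Tmem176b marked the opposite pole. In WT, Ccl5 was at 334 CPM (317 to 351) with Tmem176b and 4961 CPM (4892 to 5031) without it, a log2 ratio of -3.89 (-3.97 to -3.82). Xcl1 was at 3.41 CPM and 27.4 CPM, a ratio of -3.01 (-3.90 to -2.22), and 84 of 87 Ccl4 UMIs were in cells without Tmem176b, a ratio of -4.97 (-7.28 to -3.37). All 3 measured ligands were at least 2-fold lower with Tmem176b in WT, where 7.24% of genes were.

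The same split was shallower in KO-labelled cells. Ccl5 was at 777 CPM (756 to 798) with Tmem176b and 2542 CPM (2519 to 2565) without it, a log2 ratio of -1.71 (-1.75 to -1.67). Xcl1 was at 7.62 CPM and 14.8 CPM, a ratio of -0.96 (-1.41 to -0.52). Ccl4 had a ratio of -1.18 (-2.20 to -0.29), which turned to 0.78 without the T cell gate and to 0.02 without the 10 cells with most Ccl4, so its direction rests on the gate and a few cells. Of the 3 ligands 2 were at least 2-fold lower, against 5.59% of genes, and 1 without the gate or in cells with a Trdc UMI alone. KO-labelled cells with Tmem176b were deeper than those without it (medians of 4201 and 3389 UMIs), and at 2000 UMIs the Ccl5 shares were 15.1% and 45.2%.

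**Figure D3:**
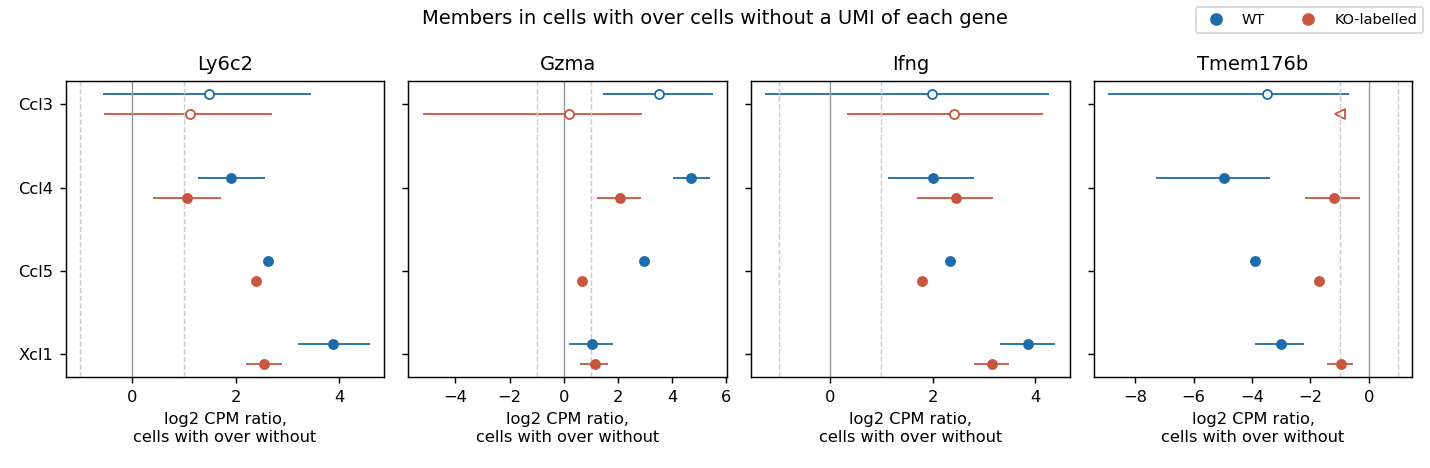
Log2 ratio of CPM in cells with over cells without Ly6c2, Gzma, Ifng or Tmem176b for each ligand and library, with exact conditional 95% bars and dashed lines at 2-fold. Open points are ligands under 30 UMIs in the library, and a triangle is an upper bound. The Gzma and Tmem176b panels show the libraries far apart for Ccl4 (4.70 in WT and 2.08 in KO-labelled cells with Gzma, -4.97 and -1.18 with Tmem176b) and Ccl5 (2.97 and 0.66, -3.89 and -1.71).

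Ccl4, with fewer than 100 UMIs in each library, moved most with the cells used. Its WT ratio by Tmem176b was -0.71 without the T cell gate, and its WT ratio by Gzma 3.16. In KO-labelled cells its ratio by Ly6c2 was 0.35 without the gate, and that by Ifng was 0.07 without the 10 cells with most Ccl4. Without the cells above the median immediate-early share, the WT ratios by Ifng were 0.67 for Ccl4 and 1.90 for Xcl1.

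The libraries' levels within these states were compared next, as descriptions of 2 libraries. In Ly6c2-positive cells, KO-labelled over WT log2 ratios were -0.48 (-0.51 to -0.45) for Ccl5, -0.67 (-1.02 to -0.31) for Xcl1 and -2.13 (-2.79 to -1.47) for Ccl4. In Tmem176b-positive cells, Ccl5 and Xcl1 were higher in KO-labelled cells, by 1.22 (1.14 to 1.30) and 1.16 (0.31 to 2.10). In Tmem176b-negative cells they were lower, by -0.96 (-0.99 to -0.94) and -0.89 (-1.22 to -0.56). Ccl5 was lower in KO-labelled cells with Gzma, by -2.09 (-2.14 to -2.04), and higher without it, by 0.22 (0.19 to 0.25). The Ccl4 ratio was -3.04 (-3.92 to -2.24) in cells with Gzma. In cells without Gzma it was -0.42, and its interval of -1.06 to 0.25 holds both directions.

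The 4 split genes overlapped, so their combinations of at least 30 cells were read, which set the genes apart only in part. Ifng alone was found in only 15 WT cells, too few for a group. In 102 KO-labelled cells with Ifng alone, Ccl5 was at 4062 CPM (3856 to 4275) and Xcl1 at 58.1 CPM (36.0 to 88.9). Ly6c2 alone gave 6283 CPM of Ccl5 in 279 WT cells and 4806 CPM in 1161 KO-labelled cells. Ly6c2 with Ifng gave 8208 CPM and 7425 CPM. Tmem176b alone gave 158 CPM in 1097 WT cells and 240 CPM in 1275 KO-labelled cells.

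Xcl1 was highest in both libraries where Ifng was also found. With Ly6c2 and Ifng it was at 167 CPM (118 to 229) in 51 WT cells and 79.9 CPM (60.2 to 104) in 166 KO-labelled cells, against 38.04 CPM and 22.7 CPM with Ly6c2 alone. In 34 KO-labelled cells with Ly6c2, Ifng and Tmem176b it was at 85.3 CPM (48.8 to 139), so a Tmem176b UMI did not come with a low level there. Ccl4 was at 151 CPM (100 to 218) in 41 WT cells with Ly6c2 and Gzma, against 12.1 CPM with Ly6c2 alone.

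**Figure D4:**
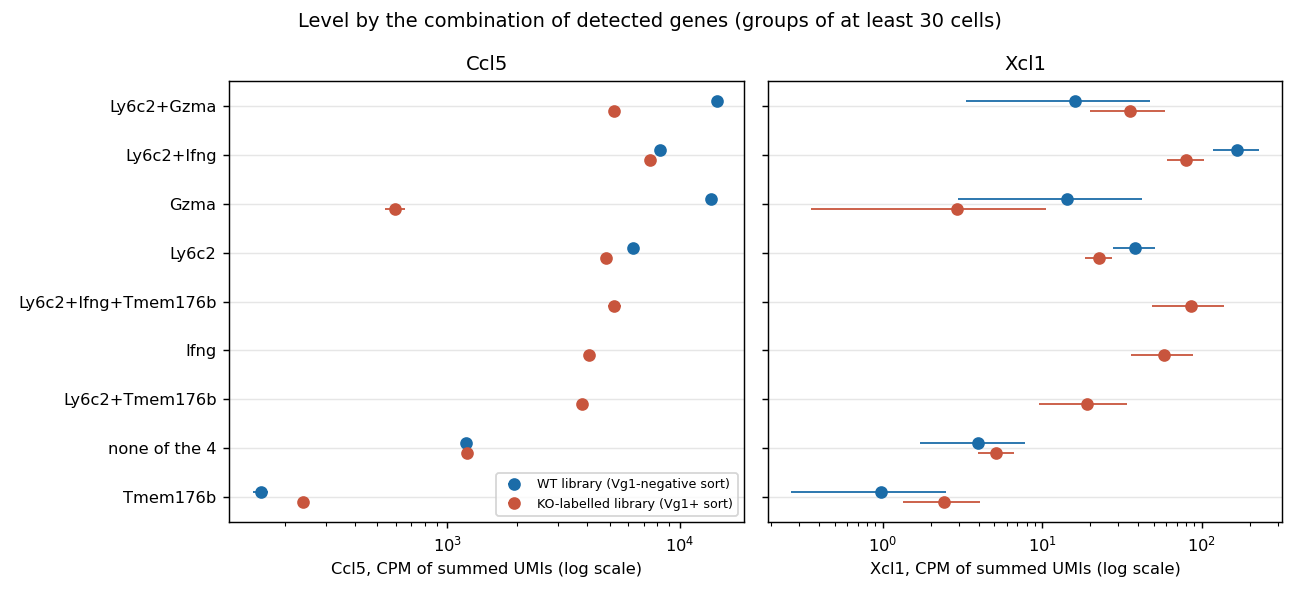
Levels of Ccl5 and Xcl1 (CPM, log axis) in every combination of detected Ly6c2, Gzma, Ifng and Tmem176b that held at least 30 cells in a library, with exact 95% Poisson bars. Cells with Gzma alone are far apart for Ccl5, at 13620 CPM in WT and 597 CPM in KO-labelled cells, while cells with none of the 4 genes are at 1206 and 1219 CPM.

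The summed markers of NK cells and of innate lymphoid cells (Ncr1, Klrb1c, Itga2, Il1rl1) moved with several of these splits. Most of these UMIs were of Klrb1c, the only 1 of the 4 genes with at least 30 UMIs in WT. In cells without Xcl1 it held 93 of 117 of them in WT and 266 of 336 in KO-labelled cells. The sum therefore mostly follows a single gene. The summed level of the 4 genes was 54.0 CPM with and 7.77 CPM without Ly6c2 in WT, and 46.3 and 7.13 CPM in KO-labelled cells. By Gzma it was 74.1 and 14.3 CPM in WT and 39.5 and 16.2 CPM in KO-labelled cells. By Ifng it was 77.1 and 15.1 CPM in WT and 80.8 and 13.5 CPM in KO-labelled cells. By Tmem176b the direction was the reverse, with 6.81 and 31.3 CPM and with 10.4 and 20.1 CPM. There the αβ marker genes were also lower in the cells with Tmem176b, at 707 and 1164 CPM in WT and 775 and 1408 CPM in KO-labelled cells. So were 12 myeloid marker genes, at 13.4 and 27.4 CPM and at 10.8 and 25.2 CPM. Of the 4 genes, 1 was at 0 in the Gzma-positive and in the Ifng-positive WT cells. In WT cells with and without Gzma, the myeloid marker genes were at 52.9 and 17.6 CPM and the αβ marker genes at 1333 and 893 CPM, and in KO-labelled cells the latter were at 1838 and 1203 CPM. Of the few mast cell and basophil marker UMIs of KO-labelled cells, 11 were in cells with Gzma and 9 in the rest (7.90 and 0.376 CPM), and of the platelet marker UMIs 17 and 32 (12.2 and 1.34 CPM). All cells used had a UMI of at least 1 T cell marker gene, and the part of these cell types in the ligand levels was not tested.

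Co-detection was counted in cells thinned to 2000 UMIs. Ccl5 was the common partner of the other ligands. Xcl1 and Ccl5 were found together in 39 WT cells, where 11.5 would be expected if detection were independent, and in 87 KO-labelled cells, where 37.3 would be. Of Xcl1-positive cells, 95.1% in WT and 87.9% in KO-labelled cells had Ccl5, an odds ratio of 53.4 (13.8 to 458) and 12.4 (6.74 to 25.0).

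Ccl4 and Ccl5 were together in 24 WT cells (7.30 expected) and 19 KO-labelled cells (7.92 expected), with odds ratios of 32.0 (7.90 to 280) and 15.8 (3.81 to 140). Of Ccl4-positive cells, 92.3% and 90.5% had Ccl5. Ccl4 and Xcl1 shared 3 WT cells (0.522 expected) and 5 KO-labelled cells (0.362 expected). Their odds ratios were 6.77 (1.25 to 23.9) and 18.7 (5.24 to 54.8), so the pair was rare but above the expected number. Ccl3 and Ccl4 shared 3 WT cells and 1 KO-labelled cell, and no cell had Ccl3 with Xcl1 at this depth. Of the 6 pairs, the interval of the odds ratio lay above 1 for 5 in WT and 4 in KO-labelled cells, and without the cells above the median immediate-early share for 3 and 2.

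**Figure D5:**
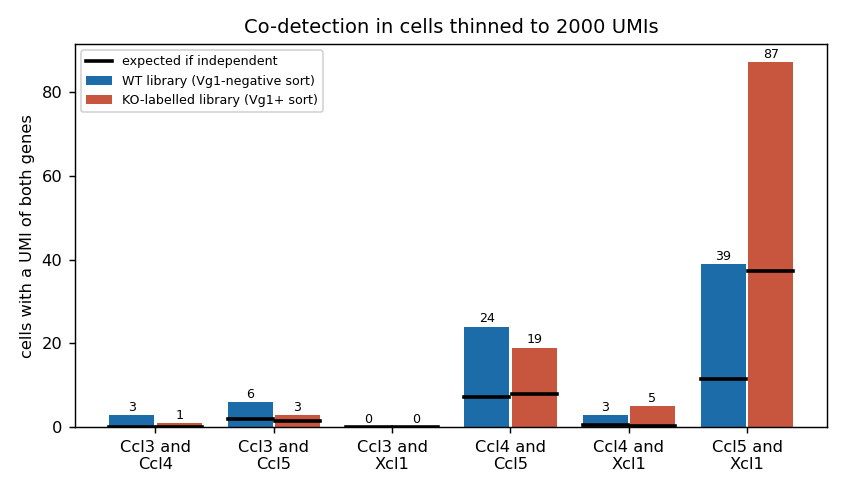
Number of cells at 2000 UMIs with both genes of each pair of ligands in the WT and KO-labelled libraries, with black lines at the number expected if detection were independent. Ccl5 with Xcl1 is the commonest pair, with 39 WT and 87 KO-labelled cells against 11.5 and 37.3 expected.

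Among Ly6c2-positive WT cells, 92.1% of which had Ccl5, an excess of the pair of Ccl5 and Xcl1 had little room to show. There 31 cells had both and 30.4 were expected, an odds ratio of 1.35 (0.317 to 12.2). In KO-labelled cells 65 such cells had both and 53.7 were expected, an odds ratio of 8.41 (2.21 to 71.3). Without Ly6c2, all 8 Xcl1-positive WT cells and 22 of 32 Xcl1-positive KO-labelled cells had Ccl5.

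Of all cells at 2000 UMIs, 71.7% in WT and 62.0% in KO-labelled cells had none of the 4 ligands. Ccl5 alone was found in 24.9% and 35.9%, Ccl5 with Xcl1 in 36 and 82 cells, and Ccl4 with Ccl5 in 19 and 14. Xcl1 alone was found in 2 and 12 cells. Ccl4, Ccl5 and Xcl1 together were found in 3 and 5 cells, and no cell of either library had all 4, also without thinning.

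The genes that stood highest in cells with a ligand over cells without it, ranked by the lower of the ratios in the 2 libraries, were these. For Ccl5 they were Klrc1, an inhibitory lectin-like receptor (log2 ratio 4.04 in WT and 3.50 in KO-labelled cells), Ly6c2 (6.10 and 3.37), Samd3 (4.63 and 3.35), Fcer1g, a signalling adaptor (5.19 and 3.20), and Ifng (5.96 and 2.40). For Xcl1 they were the adaptor Tyrobp (3.53 and 3.84), Fcer1g (3.41 and 3.798), the NK receptor genes Klrb1c (3.05 and 3.26) and Klra7 (2.75 and 4.54), and Ifng (3.97 and 2.74). Fcer1g was found in 69.7% of Xcl1-positive WT cells and 44.5% of Xcl1-positive KO-labelled cells.

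For Ccl4 the leading genes were the protease genes Gzmb (3.53 and 3.45) and Gzma (5.00 and 2.87), with Gm44174, Trim30d and Tyrobp. For Ccl3 they were Ccl4 (4.23 and 7.00), its neighbour in the cluster, then Itga1, Tyrobp, Car2 and Gzmb. The last list rests on 9 WT and 15 KO-labelled cells. The Gzma level in WT had a ratio of -1.05 in Xcl1-positive cells and 5.21 in Ccl5-positive cells. Gzma detection went the other way from its level for Xcl1, in 13.2% of Xcl1-positive WT cells and 5.43% of the rest.

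A list of type 1 and cytotoxic genes was read in cells with and without Ccl5. It includes Ly6c2, Gzma and Ifng, so it is not separate from the splits above. Of 13 measured genes in WT, 11 were at least 2-fold higher in Ccl5-positive cells and 0 lower, against 3.76% of all genes higher. The list's median log2 ratio was 3.41 and that of all genes -0.01. In KO-labelled cells 8 of 14 were at least 2-fold higher, against 1.41% of all genes, with a median of 1.31 against -0.04. All 27 WT and all 32 KO-labelled UMIs of Gzmk, a granule protease gene, were in Ccl5-positive cells. Eomes, which encodes a T-box factor of cytotoxic cells, had ratios of 4.39 and 1.73, and Il2rb, a subunit of the interleukin-2 receptor, -0.09 and 0.31.

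An IL-17-type list, which includes Tmem176b, ran the other way. All 12 of its genes were at least 2-fold lower in Ccl5-positive WT cells and 11 of 12 in Ccl5-positive KO-labelled cells, against 6.65% and 4.16% of all genes. The medians were -2.77 and -2.42. Il17a had ratios of -3.55 and -2.74, and Il23r, which encodes a subunit of the interleukin-23 receptor, -3.23 and -2.50. The exception in KO-labelled cells was Cd163l1, the scavenger receptor SCART1 gene, at 0.15.

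Xcl1-positive cells had 10 of 13 type 1 genes at least 2-fold higher in WT and 11 of 14 in KO-labelled cells, against 4.26% and 3.84% of all genes. All 12 IL-17-type genes were at least 2-fold lower in WT and 8 of 12 in KO-labelled cells, against 11.1% and 6.00% of all genes. None of 426 WT Il17f UMIs was in an Xcl1-positive cell, a ratio of at most -2.65, while in KO-labelled cells the ratio was -0.28 (-3.36 to 1.63). The NK and innate lymphoid markers were at 102 and 14.7 CPM in WT cells with and without Xcl1, and at 112 and 13.8 CPM in KO-labelled cells. Most of these UMIs were of Klrb1c, with 34 of 36 and 100 of 107 in the Xcl1-positive cells. Trdc was found in 53.9% of WT cells with Xcl1 and 44.1% of those without, and in 51.5% and 45.0% in KO-labelled cells. For Ccl4 the lists lay closer to all genes in KO-labelled cells. The type 1 list had a median of 1.91 in the 42 Ccl4-positive WT cells and 0.98 in the 36 KO-labelled ones. The IL-17-type list had medians of -2.69 and -0.39, and all genes 0 in both libraries.

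The genes with the most similar pattern were found by Pearson's r of log2 CPM over the 15 combinations of library and detected split genes with at least 30 cells, among 8825 genes. They were Kcnj8 (r = 0.97), Gimap7 and Abcb1a (both 0.95) for Ccl5, and Rgs3 (0.94), Dusp2 (0.94) and Zyx (0.94) for Xcl1. For Ccl4 they were Klre1 (0.91), Gvin1 (0.91) and Znhit6 (0.90), and for Ccl3 Kif13b (0.93), Klre1 (0.93) and Galnt10 (0.92). To each sum 1 UMI was added before the log was taken. Ccl3, with 27 UMIs in all, had 0 in several of the combinations. Much of its pattern therefore comes from the added UMI and the group size, and its r values do not describe a measured level. Ccl5 and Xcl1 had an r of 0.85 with each other, and Ccl4 and Xcl1 one of 0.58. These combinations share libraries and depth, so the values only describe likeness.

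Receptor genes were read beside the ligands. The atypical chemokine receptor gene Ccrl2 was at 29.98 CPM in WT and 15.9 CPM in KO-labelled cells, a log2 ratio of -0.91 (-1.14 to -0.68). Xcr1, the receptor for XCL1, had 4 and 9 UMIs, Ccr1 had 15 and 2, and Ccr3 and Ackr2 had 0 in both.

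Of 33 other chemokine ligand genes, 5 had at least 30 UMIs over both libraries, 12 had none in either, and Cxcl11 was not among the listed genes. Only Cxcl9, an interferon-induced ligand, was at least 2-fold lower in KO-labelled cells (49 UMIs in WT and 22 in KO-labelled cells, ratio -2.76), and none was at least 2-fold higher. The median ratio of the 5 was -0.13, against 0.04 over all genes. Cxcl2, a neutrophil attractant, was lower in Ccl5-positive than in Ccl5-negative cells, with a log2 ratio of -1.06 (-1.63 to -0.53) in WT and -4.14 (-5.07 to -3.35) in KO-labelled cells. In WT it was higher in the cells with Ccl4, by 2.30 (1.51 to 3.002). None of its 326 KO-labelled UMIs was in a cell with Ccl4, a ratio of at most 0.51, which leaves the direction open.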

How the data were processed

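Lung γδ T cells of WT and KO-labelled mice had been sorted and sequenced as 1 droplet library per group. The deposited values are raw UMI counts per gene and cell, which the authors made with Cell Ranger (7.0 in the labels and 7.0.0 in the file header, whereas the methods name another version) and mm10. The labels name a 3′ protocol and the methods a V(D)J kit, and no source used here gives the strand or whether introns were counted. Cells with over 200 and under 4000 genes and under 10% mitochondrial UMIs were kept, as in the methods. Of these, cells with at least 1 UMI of Cd3d, Cd3e, Cd3g or Trdc and under 3 B cell and under 3 myeloid marker genes were used, so that 254 WT and 261 KO-labelled cells stayed out. No doublet caller was run.

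Counts were summed over cells and given as CPM with exact Poisson intervals, shares with exact Clopper-Pearson intervals, and ratios with exact conditional binomial intervals, all at 95% and for counting error only. Where 1 group had 0 UMIs, a floor of 3 UMIs per group gave a bound, and a bound that left the direction open was not counted as a difference. Cells are not replicates, so no test was made and no p-value is given. Cells were thinned to 2000 UMIs for shares, for which 210 WT and 628 KO-labelled cells were too shallow. Of the 32285 genes, 32158 matched GENCODE M21, which gave positions. RefSeq held promoter windows for Xcl1 and Ccl3.

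Named genes were the members, the 4 genes split on, the Tcrg-V genes, genes of the fixed lists with at least 30 UMIs over both libraries, for each member the 5 genes with the highest lower ratio of the 2 libraries (a UMI in at least 10% of its cells) and the 3 most alike (at least 200 UMIs). Members and lists were chosen with earlier results of these data known. The values of 1 receptor gene are not reported here. Scripts were tested on simulated data. Python 3.11.15, numpy 2.4.6, scipy 1.17.1, pandas 2.3.3 and matplotlib 3.10.9 were used.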

Additional observations from a re-analysis of the deposited data

Results flagged for a closer look

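The following differences between the libraries turned direction with the state of the cells. Each compares 2 libraries and was not tested. The log2 ratio of KO-labelled over WT for Ccl5 was -2.09 in cells with Gzma and 0.22 in cells without it. For Ccl5 it was 1.22 in cells with Tmem176b and -0.96 in cells without it, and for Xcl1 1.16 and -0.89.

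Ligand UMIs were also present in the cells that no comparison used. Cells left out by the T cell marker gate held 26 Ccl3 and 80 Ccl4 UMIs in WT, which are 53.1% and 42.1% of the library's UMIs of these genes, and 13 and 38 in the KO-labelled library. Among them, 50 WT cells with at least 3 myeloid marker genes had 72.1 CPM of Ccl3 and 261 CPM of Ccl4. Cells left out by the filter on genes and mitochondrial UMIs held 12 Ccl3 and 23 Ccl4 UMIs in WT and 8 and 17 in the KO-labelled library. In the KO-labelled library 3 such cells held 60 Xcl1 UMIs, 15.5% of all Xcl1 of that library.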

How the results depend on the processing

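Of 229 alternative values for the main levels, ratios and counts, 186 stayed within the counting interval or within 1.5 times the count, and 43 moved. No paired analysis was possible because there is only 1 library in a group. The alternative of using only cells with a Trdc UMI was chosen after seeing the data. The cause of the moves was not tested.

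The Ccl5 log2 ratio of KO-labelled over WT was -0.23 without the T cell gate, -0.22 over all barcodes, -0.15 at 2000 UMIs, -0.14 with mean counts per 10000, -0.33 with a median-of-ratios size factor, -0.39 in cells with Trdc, -0.65 without the cells above the median immediate-early share, -0.17 without the 10 cells with most Ccl5 and -0.21 without the 5% deepest cells. The Ccl3 ratio was -2.49 at 2000 UMIs, and the Ccl4 ratio -3.33 without the cells above the median immediate-early share. The Xcl1 ratio ranged from -0.26 to 0.10.

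For KO-labelled Tcrg-V1 over WT Tcrg-V4 cells, the Ccl5 ratio was -0.62 over all barcodes, -1.33 with 2 Tcrg-V UMIs required, -0.44 with mean counts per 10000, -0.78 with Trdc, -1.18 without the cells above the median immediate-early share, -0.54 without the 10 cells with most Ccl5 and -0.61 without the deepest cells, and the Xcl1 ratio -1.70 with 2 Tcrg-V UMIs required. For KO-labelled Tcrg-V1 over WT Tcrg-V6 cells, the Ccl5 ratio was 2.39 over all barcodes, 2.12 with 2 Tcrg-V UMIs, 2.85 with mean counts per 10000 and 3.19 without the deepest cells. For WT Tcrg-V6 over Tcrg-V4 cells it was -3.00 over all barcodes, -3.45 with 2 Tcrg-V UMIs, -3.34 with Trdc, -3.61 without the cells above the median immediate-early share, -3.03 without the 10 cells with most Ccl5 and -3.80 without the deepest cells.

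In the KO-labelled library, the ligands at least 2-fold higher with Gzma were 1 with 2 Gzma UMIs required, 1 with a gene minimum of 100 UMIs and 0 without the cells above the median immediate-early share. Those at least 2-fold lower with Tmem176b were 1 without the gate, with a minimum of 100 UMIs, with mean counts per 10000, with Trdc and without the 10 cells with most of each gene. Pairs with an odds ratio interval above 1 were 3 in WT at 1000 UMIs, with Trdc and without the cells above the median immediate-early share, and 2 in the KO-labelled library without the latter cells. With a gene minimum of 10 UMIs, 1 receptor gene and 2 other ligand genes were at least 2-fold lower in the KO-labelled library. The direction turned for Ccl4 by Tmem176b in the KO-labelled library, to 0.78 without the gate, 0.63 over all barcodes, 0.016 without the cells above the median immediate-early share and 0.024 without the 10 cells with most Ccl4. It also turned for Ccl3 by Tmem176b in WT, to 0.43 over all barcodes. Depth limits Ccl3, with 27 UMIs in all, and 1 library per group leaves every difference between the libraries without a replicate check.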
